A study of Mus musculus with 8 samples.

Results

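Transcripts that mark microglia, together with lysosomal and immune-receptor genes that microglia share with other myeloid cells, were examined in microvessels of newborn mouse brain with and without an always-active PDGF receptor beta. The 34 genes were chosen by name, and each was read on the probe set with a single gene symbol that had the highest mean over the arrays. Such a probe set was found for 33 of the 34, among 18194 named genes in all, and Lyn was not analysed here. Microvessel fragments with their pericytes were pulled out of brain tissue of 1-day-old pups (P1) using beads coated with antibody to PECAM, an adhesion protein of endothelial cells that some blood cells also carry. The mutant group was 4 brains with the PDGFRb (D849V) knock-in genotype, described in the labels as constitutively active in pericytes, and the control group was 4 wild type brains, all on a 129S/J mixed background. Each brain gave 1 array. The sources used here do not state the number of copies of the allele, its activity outside pericytes or the litters of the pups, so p-values measure the spread between these brains only. Values are log2 GCRMA expression values, so a difference of 1 is a doubling, and n = 4 arrays per group throughout.

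Microglia are the resident macrophages of the brain. They descend from yolk sac progenitors, enter the brain with the first vessels, and depend on the receptor Csf1r for survival and on the transcription factor Spi1 (PU.1) for their identity. Surface receptors such as P2ry12, Cx3cr1 and Tmem119 are characteristic of resting microglia in the mature brain, whereas Tyrobp, Fcer1g, the Fc receptors, Ctss and Cd68 are found across macrophages and serve sensing, engulfment and digestion. In RNA from a whole preparation, a change in the number of cells of a type and a change in RNA per cell cannot be told apart, and this holds for every difference given here.

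The stretches just upstream of the annotated start are shown for 4 genes. They had the largest differences among those that passed the test and had a window in the RefSeq promoter table (GRCm38.p6). Windows of 300 bases, 250 before the start and 50 after it, were searched for 24 of the 34 genes. Of these genes, 4 had several windows. The 24 included 12 of the 16 genes that rose, and the motif counts below do not cover the genes left out. The lines give the 250 bases before the start, 5′ to 3′ along the gene, and capitals mark any of 6 searched motifs. Fcgr1 lies at chr3:96293970-96294219 (minus strand), Aif1 at chr17:35176053-35176302 (minus strand), Ly86 at chr13:37345095-37345344 (plus strand) and Ctss at chr3:95526536-95526785 (plus strand).
Fcgr1: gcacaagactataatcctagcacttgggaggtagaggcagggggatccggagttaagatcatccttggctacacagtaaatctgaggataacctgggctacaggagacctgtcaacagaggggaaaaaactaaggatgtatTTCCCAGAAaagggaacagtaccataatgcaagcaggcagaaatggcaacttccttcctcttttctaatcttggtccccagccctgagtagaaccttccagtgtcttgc
Aif1: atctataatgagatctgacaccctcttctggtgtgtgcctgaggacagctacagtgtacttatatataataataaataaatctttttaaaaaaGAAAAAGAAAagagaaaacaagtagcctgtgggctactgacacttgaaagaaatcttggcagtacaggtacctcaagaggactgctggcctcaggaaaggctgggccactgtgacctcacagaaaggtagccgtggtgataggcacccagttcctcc
Ly86: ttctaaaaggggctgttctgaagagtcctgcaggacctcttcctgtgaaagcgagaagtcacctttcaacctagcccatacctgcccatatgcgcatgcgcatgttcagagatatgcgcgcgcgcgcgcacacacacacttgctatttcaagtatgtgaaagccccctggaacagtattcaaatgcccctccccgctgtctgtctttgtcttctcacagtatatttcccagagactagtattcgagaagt
Ctss: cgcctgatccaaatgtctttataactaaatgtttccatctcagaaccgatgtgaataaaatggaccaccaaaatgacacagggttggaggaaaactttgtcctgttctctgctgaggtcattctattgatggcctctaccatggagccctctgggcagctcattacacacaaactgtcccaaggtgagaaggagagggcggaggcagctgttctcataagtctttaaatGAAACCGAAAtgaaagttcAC
The motifs, searched on both strands, were GAGGAAGT for PU.1, GAAA, any 2 bases and GAAA for the interferon-stimulated response element (ISRE), GGAA, any 2 bases and GAAA for the ETS-IRF composite element, TTCNNNGAA for STAT factors, TGTGGTT for RUNX factors and TCACGTGA for the CLEAR element of lysosomal genes; the ISRE and the composite element end in the same letters and can overlap. Fcgr1 held a STAT match from base -109 to base -101 relative to the start, letters that 8.3% of all 32851 promoter windows also held. Ctss held an ISRE match from base -21 to base -12, as 3.44% of all windows did, and a PU.1 match on the opposite strand that ran across the start from base -2 to base 6 (3.2% of all windows), of which the line above shows only the first bases. The ISRE match of Aif1 lay from base -157 to base -148, and Ly86 held none of the letters searched. In all, 9 of the 24 genes held at least 1 match. Genes were counted over all their windows, whereas the percentages count single windows. The share of all windows holding any of the 6 motifs was not counted. The PU.1, ISRE, STAT and CLEAR letters and those of the composite element (2.72% of all windows) were each found in 2 of the 24, the RUNX letters (5.27% of all windows) in 3, and the CLEAR letters in 0.974% of all windows. A match describes the letters in this window only.

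Microglia and myeloid genes were higher in the mutant microvessels: of the 34 genes, 16 rose, none fell, 11 were tested without passing, 6 were too dim to test and 1 was not analysed here. The high-affinity Fc receptor Fcgr1 had the largest difference, 14.6-fold, followed by the microglial calcium-binding protein Aif1 at 9.91-fold and the Toll-like receptor partner Ly86 at 4.96-fold. At the other end stood the transcription factor Sall1 at a difference of 0.11 and the granulocyte colony-stimulating factor receptor Csf3r at 0.13 on the log2 scale. In limma with Benjamini-Hochberg adjustment over the 11446 genes bright enough to test (above a log2 value of 4 on at least 4 arrays), 2.66% of all genes rose and 1.92% fell. Of the 33 genes measured all had a positive difference, from 0.11 to 3.87, with a median of 1.45. The 27 tested had a median of 1.73, against -0.11 for all tested genes; 24 of these 27 lay above the filter on all control arrays. All 4 mutant arrays lay above all 4 control arrays in 22 of the 27, as in 4.07% of all tested genes, and 6 of these 22 did not pass. None had all mutant arrays below the controls, as 10.4% of all tested genes did. Over the 33 measured, 23 had mutants above controls, as in 2.76% of all 18194 genes. Without the filter 11 of the 33 rose, against 1.31% of all 18194 genes, and none fell. Without Csf1r and Cd14, the members on the same chromosome as Pdgfrb, 14 of 25 tested rose.

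**Figure D1:**
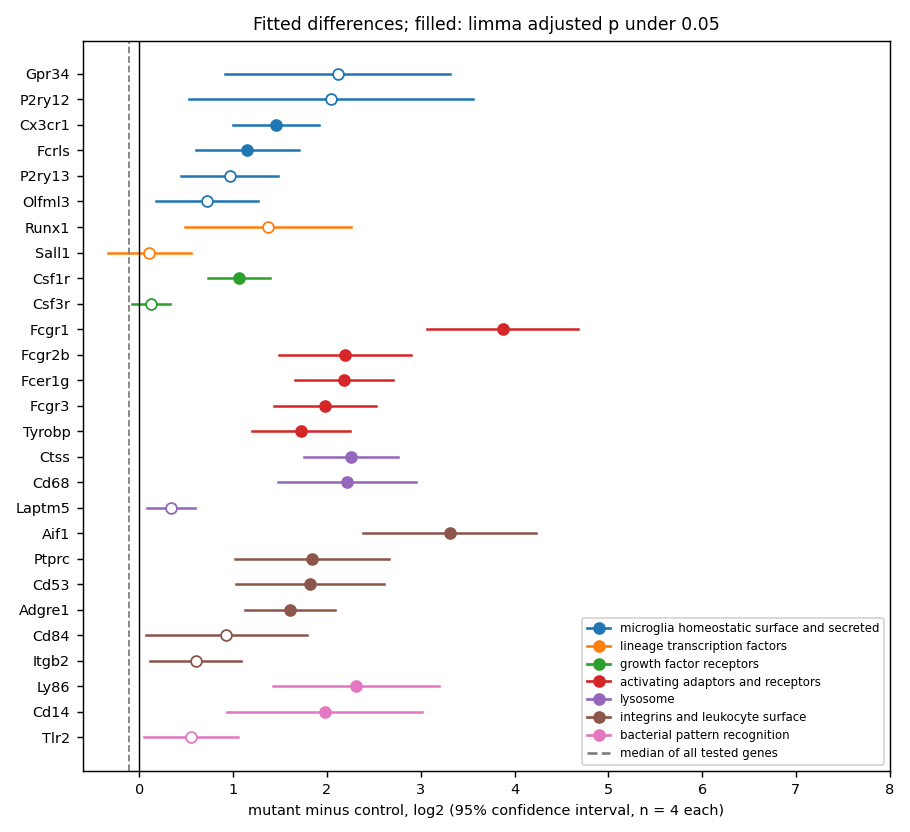
Fitted difference between mutant and control microvessels (log2, mutant minus control) for the 27 microglia and myeloid genes tested, with the 95% confidence interval from limma and n = 4 arrays per group; colours give the role, filled points an adjusted p under 0.05, the dashed line the median of all tested genes. All differences lie to the right of 0, from 0.11 for Sall1 to 3.87 for Fcgr1, and the intervals of Sall1 and Csf3r include 0.

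Transcripts of the tissue named in the labels were bright on the arrays. All 10 endothelial and all 10 pericyte markers listed were bright enough to test. So were all 8 neuron, 8 astrocyte and radial glia and 5 oligodendrocyte lineage markers measured. Being bright enough to test therefore does not tell microvessels from other brain tissue. Cldn5, a tight junction protein, read 14.39 ± 0.12 in the mutant group against 14.57 ± 0.09 in the wild type group (SD, n = 4 each). The pericyte gene Rgs5 read 14.59 ± 0.19 in the mutant group against 14.66 ± 0.14 in the wild type group (SD, n = 4 each). Pearson correlations between arrays over all probe sets ran from 0.988 to 0.995 within groups and from 0.977 to 0.991 between them. Y-linked transcripts were present on 5 arrays, 3 mutant and 2 control. After centring every array at its median, the changed genes went from 304 higher and 220 lower to 336 higher and 115 lower, and the median of the microglia genes from 1.73 to 1.82.

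The Fc receptors Fcgr1, Fcgr2b and Fcgr3 and the adaptors Fcer1g and Tyrobp rose on the probe set used for each. Tyrobp and Fcer1g are small membrane adaptors that carry tyrosine activation motifs and couple receptors without signalling tails of their own to the kinase Syk. Fcgr1 and Fcgr3 are activating receptors for IgG that need Fcer1g, Fcgr2b is the inhibitory one, and Trem2 is a lipid-sensing receptor that signals through Tyrobp. All 5 of the group that were tested rose, and all 6 measured had mutant arrays above control arrays.

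Fcgr1 read 9.11, 8.79, 9.17 and 7.61 on mutant arrays 1 to 4 and 5.28, 4.49, 4.49 and 4.93 on control arrays 1 to 4. The lowest mutant array stood above the highest control array by more than the whole span of either group. The difference was 3.87 (SE 0.353, 95% confidence interval 3.06 to 4.68, limma adjusted p = 0.000326), which ranked 56 of 11446 from the top. A dimmer probe set of Fcgr1 differed by 0.72 without reaching the threshold (limma adjusted p = 0.179 among probe sets), so that the mean of both gave 2.30.

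Fcer1g read 10.12, 9.71, 10.03 and 9.19 on mutant arrays 1 to 4 and 7.87, 7.29, 7.36 and 7.81 on control arrays 1 to 4. Tyrobp read 10.85, 10.08, 10.43 and 9.87 on mutant arrays 1 to 4 and 8.60, 8.43, 8.34 and 8.97 on control arrays 1 to 4. In both adaptors the groups were separate, with mutant array 4 the lowest of its group. Fcer1g differed by 2.18 (SE 0.23, limma adjusted p = 0.000813) and Tyrobp by 1.73 (SE 0.227, limma adjusted p = 0.00318).

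Fcgr3 read 10.06, 9.58, 9.90 and 9.02 on mutant arrays 1 to 4 and 7.68, 7.49, 7.42 and 8.05 on control arrays 1 to 4. Fcgr2b read 9.33, 9.29, 9.41 and 8.14 on mutant arrays 1 to 4 and 7.30, 6.65, 6.47 and 6.96 on control arrays 1 to 4. Here too the groups did not overlap, and in Fcgr2b mutant arrays 1 to 3 lay close together with array 4 more than 1 unit below them. The differences were 1.98 (SE 0.238, limma adjusted p = 0.00184) and 2.19 (SE 0.306, limma adjusted p = 0.00451). The Fcgr2b probe set carries the suffix for shared transcripts, and Fcgr2b and Fcgr3 are closely related in sequence, so signal may be shared between them. Of the other probe sets of Fcgr2b above the filter, 2 passed, at differences of 1.68 and 2.33, and the third, at 0.88, did not (limma adjusted p = 0.171 among probe sets), and the mean over all its probe sets was 1.42.

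Trem2 read 4.29, 3.72, 4.17 and 3.09 on mutant arrays 1 to 4 and 2.37, 2.24, 2.26 and 2.62 on control arrays 1 to 4. Only 2 mutant arrays exceeded the filter, so Trem2 was not tested in the main comparison, although its groups did not overlap; without the filter its limma adjusted p was 0.0616. Fcgr4, a mouse Fc receptor for IgG2 antibodies that is named here because of its values, read 6.74, 6.12, 6.39 and 3.05 on mutant arrays 1 to 4 and 2.47, 2.20, 2.20 and 2.20 on control arrays 1 to 4. It was above the filter on 3 arrays, all mutant, and was not tested.

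Of the 3 lysosomal genes of the set, Ctss and Cd68 rose. Ctss is a protease that macrophages use to process antigens, Cd68 a heavily glycosylated protein of late endosomes and lysosomes, and Laptm5 a lysosomal membrane protein of blood-derived cells. Ctss read 12.05, 11.83, 11.84 and 11.35 on mutant arrays 1 to 4 and 9.31, 9.14, 9.56 and 10.04 on control arrays 1 to 4. Cd68 read 8.41, 8.03, 8.72 and 7.58 on mutant arrays 1 to 4 and 6.48, 5.58, 5.41 and 6.42 on control arrays 1 to 4. The mutant arrays of both genes lay more than 1 unit above every control array. Ctss differed by 2.26 (SE 0.219, limma adjusted p = 0.000502) and Cd68 by 2.21 (SE 0.321, limma adjusted p = 0.00556). Laptm5 read 11.30, 11.04, 11.11 and 10.86 on mutant arrays 1 to 4 and 10.66, 10.76, 10.64 and 10.89 on control arrays 1 to 4. The Laptm5 groups overlapped, and its difference of 0.34 (95% confidence interval 0.08 to 0.60) did not pass (limma adjusted p = 0.139). The next brightest Laptm5 probe sets gave 0.35 and 0.55 and did not pass.

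Of 31 other lysosomal enzymes and membrane proteins, most of them made in many cell types, 3 passed as higher and 0 as lower, around a median of 0.14. The 3 were the protease Ctsb (0.66, SE 0.118, limma adjusted p = 0.0163), the secreted lysosomal chaperone Grn (0.67, SE 0.13, limma adjusted p = 0.0244) and the protease Ctsz (0.63, SE 0.144, limma adjusted p = 0.0485). No test of the difference between the lists was made.

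Of the 9 homeostatic surface and secreted genes, Cx3cr1 and Fcrls rose, P2ry12, P2ry13, Gpr34 and Olfml3 did not pass, and Tmem119, Siglech and Selplg were too dim to test. Cx3cr1 is the receptor for the neuronal chemokine fractalkine, and P2ry12, P2ry13 and Gpr34 are receptors that sense nucleotides or lipids.

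Cx3cr1 read 9.17, 9.08, 9.02 and 8.54 on mutant arrays 1 to 4 and 7.74, 7.0, 7.52 and 7.71 on control arrays 1 to 4. The groups were separate by 0.8 units (8.54 against 7.74), and the difference was 1.46 (SE 0.2, limma adjusted p = 0.00413). The other probe set of Cx3cr1 stayed under the filter on every array, and the mean of both differed by 0.84. Fcrls, an Fc receptor-like scavenger protein, ranged from 7.71 to 8.27 in mutants and from 6.46 to 7.56 in controls and rose by 1.15 (SE 0.241, limma adjusted p = 0.0332). The Fcrls call was lost without any single one of mutant arrays 1, 2 or 3 or control arrays 1, 2 or 3 (differences from 1.0 to 1.17, limma adjusted p from 0.078 to 0.112).

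P2ry12 read 6.16, 6.31, 6.35 and 4.85 on mutant arrays 1 to 4 and 5.09, 2.33, 3.12 and 4.97 on control arrays 1 to 4. Gpr34 read 7.34, 6.44, 6.80 and 6.08 on mutant arrays 1 to 4 and 5.13, 4.18, 3.19 and 5.69 on control arrays 1 to 4. The controls were widely spread, with arrays 2 and 3 low in both genes, and the P2ry12 groups overlapped. P2ry12 differed by 2.04 (95% confidence interval 0.53 to 3.55, limma adjusted p = 0.133) and Gpr34 by 2.12 (0.92 to 3.32, limma adjusted p = 0.0651), differences as large as those of genes that passed. Gpr34 passed without control array 4 (2.50, limma adjusted p = 0.0434). P2ry13 read 4.96, 4.91, 4.97 and 4.13 on mutant arrays 1 to 4 and 4.04, 3.49, 3.57 and 4.04 on control arrays 1 to 4. P2ry13 differed by 0.96 (limma adjusted p = 0.0522) and passed without mutant array 4 (1.17, limma adjusted p = 0.00899). Olfml3, a secreted matrix protein, differed by 0.72 (limma adjusted p = 0.142). Tmem119, a membrane protein of mature microglia, lay between 2.45 and 4.0 on all 8 arrays, and Siglech and Selplg between 2.81 and 3.59, with overlapping groups.

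**Figure D2:**
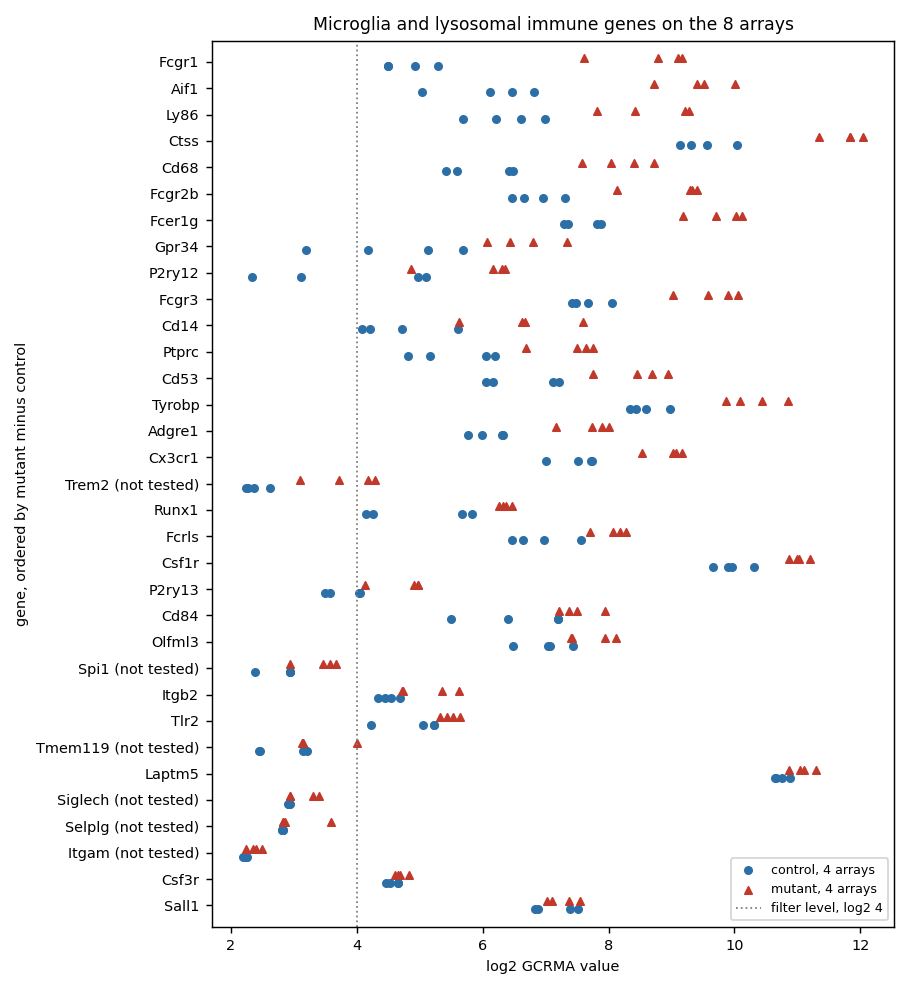
Log2 GCRMA value of each of the 33 microglia and myeloid genes on the 4 mutant arrays (triangles) and the 4 control arrays (circles), ordered from the largest difference at the top; the dotted line is the filter level of 4. Fcgr1 and Aif1 show wide gaps between the groups, whereas Sall1, Csf3r and Laptm5 overlap and Itgam lies at 2.50 or lower on every array.

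Of the 3 lineage transcription factors in the set, the 2 tested, Runx1 and Sall1, did not pass. Irf8, a myeloid transcription factor from another list, rose and is given below. Spi1, which specifies myeloid cells, lay under the filter on all 8 arrays, from 2.38 to 3.66, and was not tested. Runx1 read 6.26, 6.32, 6.46 and 6.36 on mutant arrays 1 to 4 and 4.15, 5.83, 5.67 and 4.26 on control arrays 1 to 4. Runx1, a factor of blood and microglial progenitors, was steady across the mutants and split in the controls, where arrays 2 and 3 read more than 1.4 units above arrays 1 and 4; the groups did not overlap, and the difference of 1.37 (SE 0.387) did not pass (limma adjusted p = 0.0937). Its 5 other probe sets stayed under the filter. Sall1, which keeps microglia in their resting state and is also made by neural progenitors, read 7.26 ± 0.25 in the mutant group against 7.15 ± 0.35 in the wild type group (SD, n = 4 each) and did not pass (limma adjusted p = 0.783). The sign of its difference turned without control array 1, at -0.0013.

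Of the growth factor receptors, Csf1r rose and Csf3r did not pass. Csf1r read 11.02, 10.99, 11.21 and 10.86 on mutant arrays 1 to 4 and 9.90, 9.66, 9.96 and 10.32 on control arrays 1 to 4. Csf1r, on which microglia depend for survival, was higher on every mutant array, by 1.06 (SE 0.146, limma adjusted p = 0.00417), and its other probe sets differed by 1.06 (limma adjusted p = 0.0323 among probe sets) and 1.84 (limma adjusted p = 0.201 among probe sets). Csf1r is the next protein-coding gene to Pdgfrb on chromosome 18 in the order of assembly GRCm38.p6, so the knock-in allele and the strain sequence around it are linked to it. Of 9 genes listed from that neighbourhood and tested, Csf1r and Cd74, which chaperones MHC class II (1.14, limma adjusted p = 0.0306), rose and none fell; the part of linked strain sequence was not tested. Csf3r, a receptor mainly of neutrophils, read 4.70 ± 0.10 in the mutant group against 4.57 ± 0.09 in the wild type group (SD, n = 4 each) and did not pass (limma adjusted p = 0.443). The ligands of Csf1r did not pass: Csf1 differed by 0.37 (limma adjusted p = 0.131) with mutants above controls, and Il34 by 0.31 (limma adjusted p = 0.652). None of the 8 ligands and recognition signals tested passed limma in either direction, and their median difference was 0.00. Of the 8, 2 had an unadjusted limma p under 0.05, a share not counted over all tested genes. The recognition signal Cd47 differed by 0.71 (limma adjusted p = 0.0701).

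Among integrins and leukocyte surface proteins 4 of the 6 tested rose. Aif1 read 10.02, 9.41, 9.52 and 8.73 on mutant arrays 1 to 4 and 6.46, 5.03, 6.12 and 6.82 on control arrays 1 to 4. Every mutant array of Aif1 lay at least 1.9 units above every control array, and the difference was 3.31 (SE 0.403, limma adjusted p = 0.00198). Adgre1, an adhesion receptor typical of macrophages, ranged from 7.16 to 8.0 in mutants and from 5.76 to 6.33 in controls (difference 1.61, SE 0.208, limma adjusted p = 0.00284). Ptprc, the CD45 phosphatase of all leukocytes, differed by 1.84 (SE 0.358, limma adjusted p = 0.0248) and the tetraspanin Cd53 by 1.82 (SE 0.344, limma adjusted p = 0.0223). Both of these calls were lost without any single one of mutant arrays 1, 2 or 3 or control arrays 2 or 3, at differences from 1.59 to 1.82 and limma adjusted p from 0.0601 to 0.0928. The mean with a second probe set at the floor was 0.92 for Ptprc and 0.93 for Cd53.

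Cd84 read 7.95, 7.21, 7.49 and 7.37 on mutant arrays 1 to 4 and 5.50, 7.20, 7.20 and 6.41 on control arrays 1 to 4. The groups of Cd84, a self-binding receptor of leukocytes, touched without overlap, at 7.21 against 7.20, and its difference of 0.93 did not pass (limma adjusted p = 0.213). Itgb2, the shared beta chain of leukocyte integrins, differed by 0.60 without passing (limma adjusted p = 0.166). Its alpha partner Itgam, CD11b, lay between 2.19 and 2.50 on all arrays and was not tested.

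Of the proteins that recognise bacterial products, Ly86 and Cd14 rose. Ly86 read 9.21, 8.43, 9.29 and 7.81 on mutant arrays 1 to 4 and 5.68, 6.22, 6.61 and 6.99 on control arrays 1 to 4. Ly86, the partner of the receptor Cd180, was higher on every mutant array (difference 2.31, SE 0.386, limma adjusted p = 0.0125). Cd14 read 7.59, 6.62, 6.67 and 5.63 on mutant arrays 1 to 4 and 5.60, 4.08, 4.21 and 4.72 on control arrays 1 to 4. The Cd14 groups touched, with mutant array 4 at 5.63 and control array 1 at 5.60. The difference of Cd14, the lipopolysaccharide co-receptor, was 1.98 (SE 0.454, limma adjusted p = 0.0487), and the call was lost without any single one of mutant arrays 1, 2 or 3 or control arrays 2, 3 or 4 (1.65 to 2.0, limma adjusted p from 0.0963 to 0.137). With the Y-linked genes as a covariate its limma adjusted p was 0.0512. Tlr2, a receptor for bacterial lipoproteins, differed by 0.55 and did not pass (limma adjusted p = 0.208). Of 8 other Toll-like receptor genes and partners tested, 3 passed as higher and none as lower. They were the endosomal RNA sensor Tlr3 (1.5, SE 0.108, limma adjusted p = 6.42e-05), the trafficking chaperone Unc93b1 (0.67, SE 0.12, limma adjusted p = 0.0173) and Tlr1. Tlr1 entered the test only through the mutant arrays, with all control arrays under the filter, so its call (limma adjusted p = 0.0306) follows in part from the filter. Its limma adjusted p was 0.109 without the filter, and without Tlr1 the list had 2 calls.

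Arrays of 1 group differed in level across these genes. Mutant array 4 was the lowest mutant array in 23 of the 27 tested, as in 22.5% of all tested genes, and lay below the mean of the other mutants by a median of 0.72, while over all tested genes it lay above them by a median of 0.06 (mutants 1 to 3 minus array 4, -0.06). The mean of the 27 genes, each centred on its mean over the 8 arrays, was 0.32 on mutant array 4 against 0.80 to 1.08 on the other mutants. On the same array the mean of 27 interferon response genes, also centred, was 2.08 against 2.40 to 2.69, that of 10 perivascular macrophage markers 0.07 against 0.33 to 0.92, that of 10 endothelial markers -0.47 against 0.03 to 0.14, and that of 8 neuron markers 0.61 against -0.43 to 0.14. The part of these in the lower values of array 4 was not tested. Without mutant array 4, 17 of the 27 rose, against 2.65% of all tested genes, with a median of 1.87.

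Among the controls, arrays 1 and 4 were the highest of their group in 12 of the 27 genes each, as in 35.9% and 23.6% of all tested genes. These were the control arrays without Y-linked transcripts, and both exceeded both other controls in 16 of the 27 genes, as in 25.8% of all tested genes. The mutant array without Y-linked transcripts, array 2, was the highest mutant in 1 of the 27 genes and the lowest in 1. Over all tested genes it was the highest mutant in 27.4% and the lowest in 23.8%. With the Y-linked genes as a covariate 18 of the 27 rose, against 2.59% of all tested genes. When the fit used just the 5 arrays that had Y-linked transcripts, which was decided with the data in view, the median difference was 2.0 and only Ctss passed (2.40, limma adjusted p = 0.0347), with 0.718% of all genes rising.

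**Figure D3:**
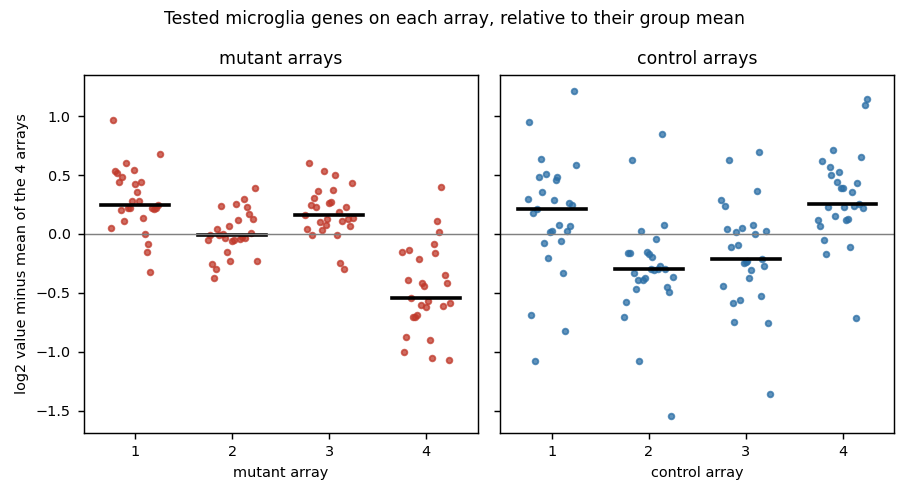
Log2 value of each of the 27 tested microglia and myeloid genes on each array, minus the mean of its 4 mutant arrays (left) or its 4 control arrays (right); points are genes and black bars their medians. Mutant array 4 lies below the other mutant arrays in 23 of the 27 genes, and control arrays 1 and 4 lie above control arrays 2 and 3 in 16.

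Further genes of microglia and macrophages were read from a list. Of 17 tested, 6 rose and none fell, with a median of 0.23. The complement chains C1qa (2.38, SE 0.24, limma adjusted p = 0.000596), C1qb (2.46, SE 0.307, limma adjusted p = 0.00224) and C1qc (2.50, SE 0.318, limma adjusted p = 0.00259), which microglia make in the brain, and Irf8, a myeloid transcription factor (2.63, SE 0.266, limma adjusted p = 0.000603), led this list. Among 17 genes of myeloid signalling and the leukocyte cytoskeleton, 8 rose and none fell (median 0.77), led in p by the integrin activator Fermt3 (1.12, limma adjusted p = 0.00472), the surface peptide Cd52 (3.17, limma adjusted p = 0.0107), the adaptor Fyb (1.63, limma adjusted p = 0.0169) and the actin regulator Coro1a (1.87, limma adjusted p = 0.0326). Of 9 genes that microglia raise near damage, 3 rose and none fell: the lipid carrier Fabp5 (0.63, limma adjusted p = 0.0134), the tetraspanin Cd9 (0.36, limma adjusted p = 0.0409) and the chemokine Ccl6 (1.38, limma adjusted p = 0.044). Fabp5 and Cd9 are also made by other brain and vessel cells. Of the damage genes, Itgax, Cst7 and Gpnmb were at the floor throughout, that is, within 0.5 of the lowest value of the data.

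**Figure D4:**
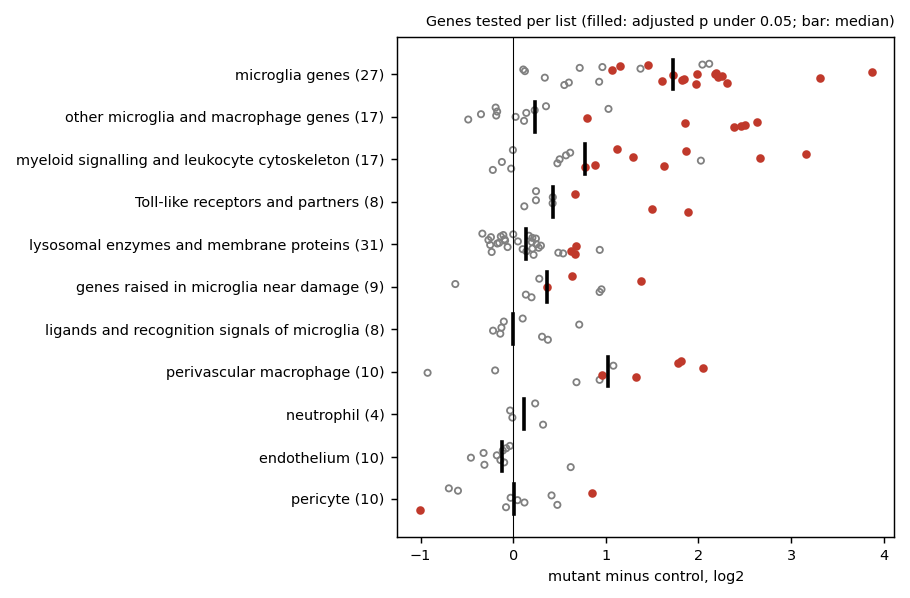
Fitted difference (log2, mutant minus control) of every tested gene in the microglia set and in 10 other lists; points are genes, filled where the limma adjusted p is under 0.05, bars are medians, and the number of tested genes stands beside each name. The microglia set has a median of 1.73, the perivascular macrophage markers 1.02, the general lysosomal genes 0.14 and the endothelial markers -0.13.

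Markers of other blood and vessel cells were read beside these genes, and their part in the differences was not tested. Perivascular macrophages share many of the genes above, and of their 10 markers 5 rose and none fell (median 1.02). These included Ms4a7 (2.05, SE 0.201, limma adjusted p = 0.000532), the folate receptor Folr2 (1.81, limma adjusted p = 0.00638), the lectin Clec10a (1.78, limma adjusted p = 0.0133) and the hyaluronan receptor Lyve1 (1.33, limma adjusted p = 0.0214). Over the 10 markers 8 differences were positive and 2 negative. The mean log2 value of that list ran from 7.92 to 8.77 on mutant arrays and from 7.07 to 7.70 on control arrays. Of 6 monocyte markers measured, Plac8, which interferon also induces, rose (5.74, limma adjusted p = 1.11e-06), while Ccr2 and Chil3 were at the floor throughout; the list means were 7.10 to 7.55 in mutants and 6.18 to 6.48 in controls. The 4 monocyte markers tested had 2 positive and 2 negative differences with a median of 0.06, so the gap between the list means comes from Plac8.

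Neutrophil and lymphocyte markers gave no calls in limma. Over all lists of ligands and of cell markers without a call, vessel and neural lists included, 11 of 55 tested genes had an unadjusted limma p under 0.05. Of the 11, 7 had a positive and 4 a negative difference, and none was a neutrophil or NK cell marker. The share of all tested genes under that p was not counted, so no excess is read from it. None of the 4 neutrophil genes tested passed in either direction, 6 of the 10 measured were below the filter throughout, Mpo and Elane among them at the floor, and the list means were 4.27 to 4.70 in mutants and 4.33 to 4.62 in controls. All 8 T cell markers measured were below the filter throughout, 6 of them at the floor, Cd3e, Cd3d and Cd3g among these, with list means of 2.27 to 2.46 in mutants and 2.27 to 2.28 in controls. Of 6 B cell markers 2 were tested and none passed, Cd79a and Pax5 lay at the floor, and the list means were 4.15 to 4.58 and 3.99 to 4.28. Of 7 dendritic cell markers 2 were tested and none passed, Flt3, Xcr1, Cd209a and Ccr7 lay at the floor, Siglech is also in the microglia set, and the list means were 3.59 to 3.66 and 3.47 to 3.57. Of 5 platelet markers 2 were tested and none passed, with list means of 3.07 to 3.97 and 2.94 to 3.55, and of 5 erythroid markers 2 were tested and none passed, with list means of 3.71 to 4.23 and 3.63 to 4.52.

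Markers of vessel and neural cells gave 1 call in each direction. Of 10 endothelial markers none passed and 9 had a negative difference (median -0.13); Pecam1, the target of the capture antibody, read 11.09, 10.96, 10.99 and 9.09 on mutant arrays 1 to 4 and 11.27, 9.56, 9.29 and 9.53 on control arrays 1 to 4, with no separation of the groups. Of 10 pericyte markers Higd1b rose (0.85, limma adjusted p = 0.041) and Pdgfrb fell (-1.01, limma adjusted p = 0.00132), with a median of 0.01. Pdgfrb is itself the gene that carries the knock-in, and the part of the altered allele in its value was not tested. None of 8 neuron markers (median 0.18), 8 astrocyte and radial glia markers (0.32) or 5 oligodendrocyte lineage markers (-0.05) passed. The list means of these groups overlapped between mutants and controls, at 11.42 to 12.03 against 11.79 to 12.24 for endothelium, 9.86 to 10.29 against 10.05 to 10.52 for pericytes, 7.74 to 8.78 against 7.40 to 8.41 for neurons, 8.15 to 9.79 against 8.57 to 9.06 for astrocytes and 6.90 to 8.71 against 7.52 to 7.90 for the oligodendrocyte lineage. Interferon response genes were higher on the same arrays: 26 of 27 rose, none fell, and their median was 4.79 (5 of the 26 passed the filter only through the mutants), with list means of 10.92 to 11.53 in mutants and 6.15 to 6.53 in controls; their part in the microglial differences was not tested.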

How the data were processed

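RNA from microvessels of 8 newborn mouse brains was measured on 1-colour Affymetrix arrays, 1 per brain, from 6 ug of total RNA per the labels' protocols. The authors deposited 1 log2 value for each probe set; GCRMA is the tool named in the submitters' processing notes, with its version not given in the sources used here. The log2 scale was read from the values, 2.18 to 16.49. GCRMA pulls dim probe sets to a floor, so differences near it are understated; floor means within 0.5 of the lowest value. Of 45101 probe sets, 34958 had 1 symbol, 932 several and 9211 none; the brightest per gene was used. Symbols came from the platform annotation and assembly GRCm38.p6.

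Groups followed the labelled genotype; no day, litter or scan date was at hand, so no batch could be tested. Mutant and control arrays were compared with limma 3.58.1 in R 4.3.3 (lmFit, eBayes, two-sided, no covariates), with Benjamini-Hochberg adjustment over the 11446 genes tested and a threshold of 0.05. The fit was tested on simulated data. The members and lists were chosen with earlier results of these data known. Every member is named; from other lists, up to 4 passing genes with the smallest p, or the 2 brightest; a gene outside this rule was chosen after its values were seen. Alternatives were other filters, normalizations, probe set rules, covariates, weights and thresholds, and each array left out. The number of arrays limits the precision.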

Additional observations from a re-analysis of the deposited data

Results flagged for a closer look

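Dixon's test flags about 1 in 20 by chance where values are independent and normally distributed. Here the genes share the same arrays and dim values can tie, so that rate need not hold. The share flagged over all genes was not counted, and no excess is read. A single array stood far from the other arrays of its group in 6 of the 66 gene and group combinations checked with this test. In 3 of them the array was mutant array 4, which lay low: P2ry12 read 4.85 there against 6.16 to 6.35 on the other mutants, P2ry13 4.13 against 4.91 to 4.97, and Fcgr2b 8.14 against 9.29 to 9.41. The remaining 3 concerned genes too dim to test, where values are not resolved. Tmem119 read 4.0 on mutant array 2 against 3.13 to 3.15 on the other mutants. Selplg read 3.59 on mutant array 1 against 2.82 to 2.85. Spi1 read 2.38 on control array 3 against 2.94 on each other control.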

How the results depend on the processing

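Over 20 other settings the number of microglia genes that rose stayed between 11 and 24, against 16, and none fell. It was 11 of 33 without the filter, where 1.31% of all genes rose, and 11 of 27 at a threshold of 0.01 (1.83%). With the filter at 6 it was 15 of 21 (2.84%). With array weights it was 24 of 27, but there 7.82% of all tested genes rose and 2263 of 11446 fell. Leaving out 1 array gave 12 to 17 of 27, while 1.66% to 2.65% of all tested genes rose. Of the 16 genes that rose, 11 kept the call in each of the 20 in which they were tested (Fcgr2b in 19, since its probe set without a suffix lies at the floor), and Cd14, Cd53, Fcrls, Ly86 and Ptprc lost it in 1 or more; Ly86 lost it without the filter (limma adjusted p = 0.0596), with the replicate block and at 0.01. Of the 11 tested that did not pass, 8 passed in at least 1 setting. Among these, Cd84, Itgb2, Laptm5, Runx1 and Tlr2 passed only with array weights. The median difference was 1.37 when the probe sets of each gene were averaged, against 1.73, since some second probe sets lie at the floor. On the 5 arrays with Y-linked transcripts, an alternative added after seeing the data, 1 gene rose; that fit had 3 arrays against 2. Sall1 turned to -0.22 with array weights, -0.0013 to 0.23 when 1 array was left out (negative without control replicate 1) and -0.034 on those 5 arrays. The shared replicate numbers did not pair the arrays (correlations of deviations from -0.48 to 0.30). With the replicate block 12 of 27 genes rose, against 1.93% of all tested genes. Values near the floor are not resolved, which limits Trem2, Spi1, Tmem119, Siglech, Selplg and Itgam.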

Other observations

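Some genes of other immune cells, named here because of their values, were high on several mutant arrays. Gzma, a granule protease of cytotoxic lymphocytes, read 8.92, 8.0, 8.07 and 2.58 on mutant arrays 1 to 4 and 2.30, 2.22, 2.22 and 2.53 on control arrays 1 to 4. It was high on the 3 mutant arrays where Fcgr4 was high and low on mutant array 4, and with 3 arrays above the filter it was not tested. Of the 6 NK cell markers measured only Eomes was tested and it did not pass, Ncr1 and Prf1 lay at the floor on every array, and the list means were 3.02 to 4.65 in mutants and 2.83 to 3.15 in controls. The mast cell proteases varied from brain to brain in both groups. Cma1 read 7.48, 9.46, 9.51 and 8.03 on mutant arrays 1 to 4 and 5.58, 7.69, 3.81 and 4.71 on control arrays 1 to 4. Cpa3 read 7.56, 9.70, 9.27 and 7.71 on mutant arrays 1 to 4 and 6.39, 8.18, 4.99 and 6.45 on control arrays 1 to 4. Neither passed (limma adjusted p = 0.0774 and 0.162). The third mast cell marker tested, Kit, did not pass either, and its difference was negative. The list means were 5.27 to 6.38 in mutants and 4.15 to 5.38 in controls.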
